A study of Homo sapiens with 11 samples.

Results

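The axon guidance ligands and receptors were followed across 5 lines of ARPE-19, an established human cell line of retinal pigment epithelium (RPE), the pigmented layer beneath the retina. Members were chosen by symbol alone: every row of the deposited table named as an Eph receptor, ephrin, semaphorin, plexin, Slit, Robo, netrin or UNC5 receptor, which gave 68 genes of 60605 listed features. The lines were stable ARPE-19 cells that expressed an open reading frame for 4 days: GFP, a fluorescent protein used as the control (3 libraries), Oct4, Sox2, Klf4, or these 3 transcription factors together (OSK), with 2 libraries in each of the last 4 groups. All groups share the ARPE-19 background and a delivered reading frame. The library names of the Oct4, Sox2, Klf4 and OSK groups carry the letters mC, which those of GFP lack and which the labels do not explain, so whatever mC stands for cannot be told apart from the factors in a comparison with GFP. The labels do not say whether a line was a clone or how the frame was driven, nor whether libraries of a group came from separate cultures, so p-values measure the spread between these libraries, which may be technical. PolyA RNA was sequenced, and values are normalised counts, for which the authors scaled each library's gene counts by 1 factor. Because these are bulk samples, fewer cells that express a gene and less RNA per cell cannot be told apart.

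Axon guidance molecules steer growing neurites and migrating cells by attraction and repulsion at the cell surface. Ephrins are membrane-bound ligands of the Eph receptor tyrosine kinases, and both partners signal into the cell that carries them. Semaphorins act through plexins, and most secreted class 3 semaphorins need a neuropilin as co-receptor. Slits bind Robo receptors, and netrins bind DCC, neogenin and the UNC5 receptors, of which UNC5 proteins carry the repulsive response and also act as dependence receptors in cell survival. The same families guide blood vessels and shape epithelial contacts, and in the eye they help to direct retinal axons and to set the balance of vessel growth near the RPE.

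The promoter windows of the members that rose or fell most from GFP in each line are shown. Windows run from 250 bases before to 50 bases after a RefSeq transcription start on GRCh38.p14, the first window listed for each gene, and 58 of the 68 members had one (the others were EPHA10, EFNB3, SEMA3A, SEMA6A, SEMA6B, NTN1, NTN3, NTNG2, UNC5B and UNC5D). NTNG1 (chr1:107139838-107140137, plus strand) rose most in Klf4 and OSK, EPHB3 (chr3:184561535-184561834, plus) in Oct4, and EPHA5 (chr4:65670440-65670739, minus) in Sox2. SEMA3D (chr7:85187007-85187306, minus) fell most in Oct4, SEMA4A (chr1:156149694-156149993, plus) in Sox2, and SEMA5B (chr3:123028556-123028855, minus) in Klf4 and OSK. Capitals mark matches to letters known from binding sites of the delivered factors, searched on both strands, so that a match on the other strand shows as its reverse complement. For Klf4 the letters were GGGTGNGGC and the shorter CACCC. The octamer ATGCAAAT was searched for Oct4. For Sox2 the letters were ACAAAG.
EPHB3: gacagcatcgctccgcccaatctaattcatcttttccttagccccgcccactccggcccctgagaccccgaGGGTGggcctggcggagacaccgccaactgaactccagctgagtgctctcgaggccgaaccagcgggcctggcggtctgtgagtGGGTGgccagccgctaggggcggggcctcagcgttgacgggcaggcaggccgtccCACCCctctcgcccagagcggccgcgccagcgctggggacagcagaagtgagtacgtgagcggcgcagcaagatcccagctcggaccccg
NTNG1: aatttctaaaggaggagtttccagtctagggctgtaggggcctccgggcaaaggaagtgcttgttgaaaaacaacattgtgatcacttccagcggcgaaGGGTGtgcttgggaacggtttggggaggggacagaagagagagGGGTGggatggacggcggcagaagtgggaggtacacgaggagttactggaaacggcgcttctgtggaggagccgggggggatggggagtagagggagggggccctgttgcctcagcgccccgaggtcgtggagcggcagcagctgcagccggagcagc
EPHA5: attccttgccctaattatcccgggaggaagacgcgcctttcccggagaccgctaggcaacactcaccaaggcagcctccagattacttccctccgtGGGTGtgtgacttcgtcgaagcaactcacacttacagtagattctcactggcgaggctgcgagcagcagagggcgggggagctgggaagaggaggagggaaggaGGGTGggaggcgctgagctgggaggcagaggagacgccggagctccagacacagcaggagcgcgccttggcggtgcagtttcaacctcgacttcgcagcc
SEMA3D: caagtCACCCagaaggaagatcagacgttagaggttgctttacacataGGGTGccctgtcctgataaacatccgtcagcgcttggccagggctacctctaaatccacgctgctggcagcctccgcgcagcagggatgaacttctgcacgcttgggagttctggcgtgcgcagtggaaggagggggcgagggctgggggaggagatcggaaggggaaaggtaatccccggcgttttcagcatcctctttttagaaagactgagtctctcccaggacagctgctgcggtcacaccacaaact
SEMA4A: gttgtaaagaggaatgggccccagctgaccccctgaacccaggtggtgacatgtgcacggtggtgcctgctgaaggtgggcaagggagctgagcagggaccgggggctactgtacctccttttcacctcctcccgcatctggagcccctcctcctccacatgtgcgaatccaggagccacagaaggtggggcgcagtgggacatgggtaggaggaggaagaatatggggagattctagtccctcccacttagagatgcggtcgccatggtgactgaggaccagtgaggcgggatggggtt
SEMA5B: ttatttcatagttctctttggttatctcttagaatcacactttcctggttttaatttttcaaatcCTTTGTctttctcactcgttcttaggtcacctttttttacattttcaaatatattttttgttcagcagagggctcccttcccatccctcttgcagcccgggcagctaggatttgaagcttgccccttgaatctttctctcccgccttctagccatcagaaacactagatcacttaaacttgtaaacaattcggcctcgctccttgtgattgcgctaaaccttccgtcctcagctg
NTNG1 and EPHA5 each held 2 matches to CACCC, EPHB3 held 3 and SEMA3D held 2, SEMA5B held 1 to ACAAAG, and the SEMA4A window held no match to these letters. Each match to GGGTGNGGC also contains CACCC on the other strand. Over all members with a window, CACCC occurred in 41 of 58 (70.7%), against 58.9% of 27305 promoter windows of the same length. The longer Klf4 letters occurred in 6 (10.3%, against 5.52%), ACAAAG in 6 (10.3%, against 16%) and ATGCAAAT in 1 (1.72%, against 1.8%). The members' windows were richer in G and C, with a median of 65.2% against 58.3%. A match is a description of letters and not a binding site.

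Depth ran from 15053300 to 19791775 reads per library, of which the 68 members took 0.458% to 1.17%. GFP replicate 1 and OSK replicate 1 stood apart, with 42956 and 32493 features detected against 25853 to 26971 in the other 9, and they had reads in 67.7% and 23% of 405 olfactory receptor features, which RPE cells should lack, against 4.94% to 8.15% elsewhere. In GFP replicate 1, 10 members were more than 3 times as high as in either other GFP library (EPHA8, EPHB6, SEMA3G, SEMA6B, SLIT1, ROBO2, ROBO4, NTNG2, UNC5A and UNC5C). The delivered genes matched the labels, with POU5F1 (Oct4), SOX2 and KLF4 each at 17582 or more in the lines that carried them and at 446 or less in the others. Their levels were not equal between lines. POU5F1 stood at 67326 and 66823 in Oct4 and at 19020 and 19542 in OSK. SOX2 stood at 29106 and 29141 in Sox2 and at 17764 and 17582 in OSK. KLF4 was at 24205 and 22142 in Klf4 and at 24470 and 24202 in OSK. The part of these levels in the differences between OSK and the single-factor lines was not tested. Of 14 RPE markers, RPE65 and TTR were at 0 to 4.97 in every library, whereas MITF, OTX2, PMEL, TYRP1 and KRT8 were present. The summed RPE markers stood at 33490 to 37190 in GFP, 18380 to 18860 in Oct4 and 21440 to 22130 in Sox2. They were at 25730 to 28780 in Klf4 and 15850 to 16150 in OSK. KRT8 was the largest part of the sum, at 15568 to 16617 in GFP. In Oct4, Sox2, Klf4 and OSK, 9, 6, 4 and 10 of 11 tested RPE markers were lower than in GFP (limma adjusted p under 0.05). Klf4 had 1 higher and the other lines none. Among 9 endothelial markers, PECAM1 and CDH5 stood at 0 to 29.8, with the highest value in GFP replicate 1. VWF was at 73.5, 0 and 1.94 in GFP, 4.64 to 15.4 in Oct4 and Sox2, 46.3 and 33.1 in Klf4, and 43.4 and 27.5 in OSK. The summed list was 1149 to 1582 in GFP, highest in replicate 1, and 604 to 605 in OSK. In Oct4, Sox2 and Klf4 it was 800 to 864, 806 to 1016 and 719 to 761. KDR made up most of this sum, at 1089 to 1218 in GFP and 476 and 504 in OSK. Of 6 tested endothelial markers, Oct4 had 1 higher and 2 lower, and Sox2 1 higher and 1 lower. Klf4 had 2 lower and OSK 1 lower. Summed neuron markers were 4043 to 4542 in GFP, 2712 to 3122 in Oct4, 5697 to 5778 in Sox2, 3042 to 3175 in Klf4 and 8596 to 9380 in OSK. Of 9 tested neuron markers, 4 were lower in Oct4 and 3 in Klf4 with none higher, while Sox2 had 1 higher and 5 lower and OSK 1 higher and 3 lower. The higher one was MAP2, a microtubule protein, at 2007 to 2468 in GFP, 5049 and 4964 in Sox2, and 7558 and 8235 in OSK. MAP2 made up most of the summed neuron markers in Sox2 and OSK, so the higher sums there rest on 1 gene. TUBB3 stood at 307 to 334 in GFP and at 54.2 and 60.5 in OSK, and SYT1 at 1518 to 1925 and at 887 and 1005. The part of these marker shifts in the results that follow was not tested.

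Guidance genes moved in every line, in both directions. Of the 68 members 63 passed the filter of at least 10 normalised counts in at least 2 libraries, and EPHA8, SEMA3E, SEMA3G, ROBO2 and UNC5C did not. Among the 63, 50 (79.4%) differed among the 5 groups, against 65.7% of all 18828 genes tested (limma F-test on log2 of the normalised count + 1, Benjamini-Hochberg adjusted p under 0.05 over all genes, as in every test below). Compared with GFP, Oct4 changed 30 members, which is 47.6% against 37.3% of all genes tested, with 14 higher and 16 lower where 20.1% and 17.2% of all genes were. Sox2 changed 33, 52.4% against 41.6%, with 13 higher and 20 lower against 21.7% and 19.9% of all genes. Klf4 changed 28, 44.4% against 33.5%, with 18 higher and 10 lower against 17.6% and 16% of all genes. OSK changed 42, 66.7% against 39.7%, with 18 higher and 24 lower against 19.7% and 20% of all genes. The 18, and the 50 that differed among the groups, include EPHA6, which passed the filter through its OSK libraries alone. In OSK the median absolute log2 change over the tested members was 0.727, against 0.376 over all genes. In the Oct4, Sox2 and Klf4 lines these medians were 0.593, 0.617 and 0.519, against 0.366, 0.410 and 0.339. The 4 comparisons share the GFP libraries.

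**Figure D1:**
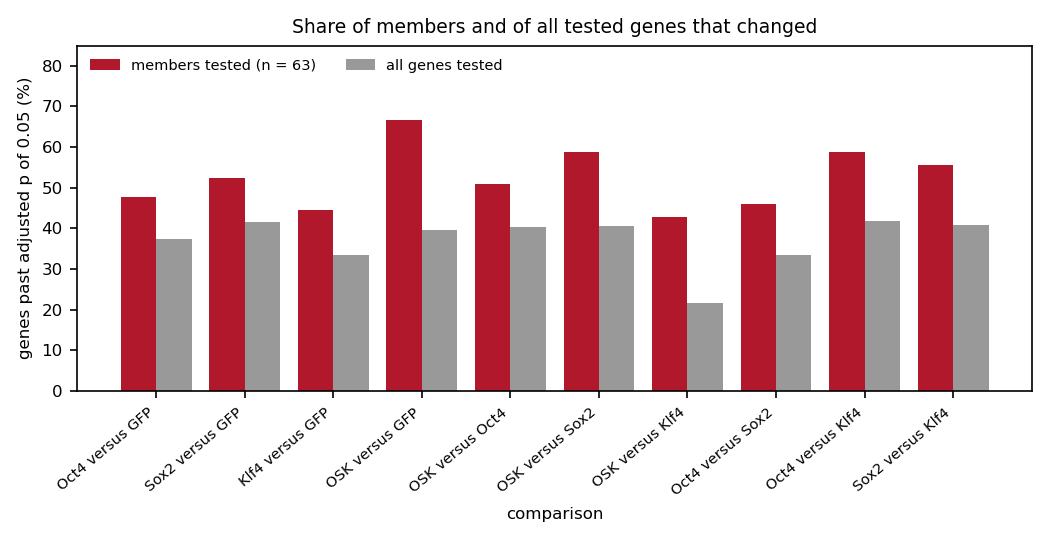
Bars give the percentage of the 63 tested members (red) and of all 18828 tested genes (grey) with an adjusted p under 0.05 in each of the 10 comparisons between lines. The members' share lies above that of all genes in each comparison, from 42.9% against 21.5% (OSK versus Klf4) to 66.7% against 39.7% (OSK versus GFP).

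OSK differed from each of its single factors too. Against Oct4, 32 members differed, which is 50.8% against 40.3% of all genes, 13 of them higher in OSK and 19 lower against 18.4% and 21.9%. Against Sox2 there were 37, 58.7% against 40.5%, with 16 higher and 21 lower against 20% and 20.5%. Against Klf4, the comparison with the fewest changes over all genes, 27 differed, 42.9% against 21.5%, with 7 higher and 20 lower against 9.56% and 11.9%. The 13 higher than Oct4 and the 7 higher than Klf4 include EPHA6, which passed the filter through its OSK libraries alone. Between single factors, Oct4 and Sox2 differed in 29 members (46% against 33.4% of all genes), of which 16 were higher and 13 lower in Oct4, against 18% and 15.4%. Oct4 and Klf4 differed in 37 (58.7% against 41.7%), 15 higher and 22 lower in Oct4, against 21.8% and 20%. Sox2 and Klf4 differed in 35 (55.6% against 40.8%), 15 higher and 20 lower in Sox2, against 20.1% and 20.7%.

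**Figure D2:**
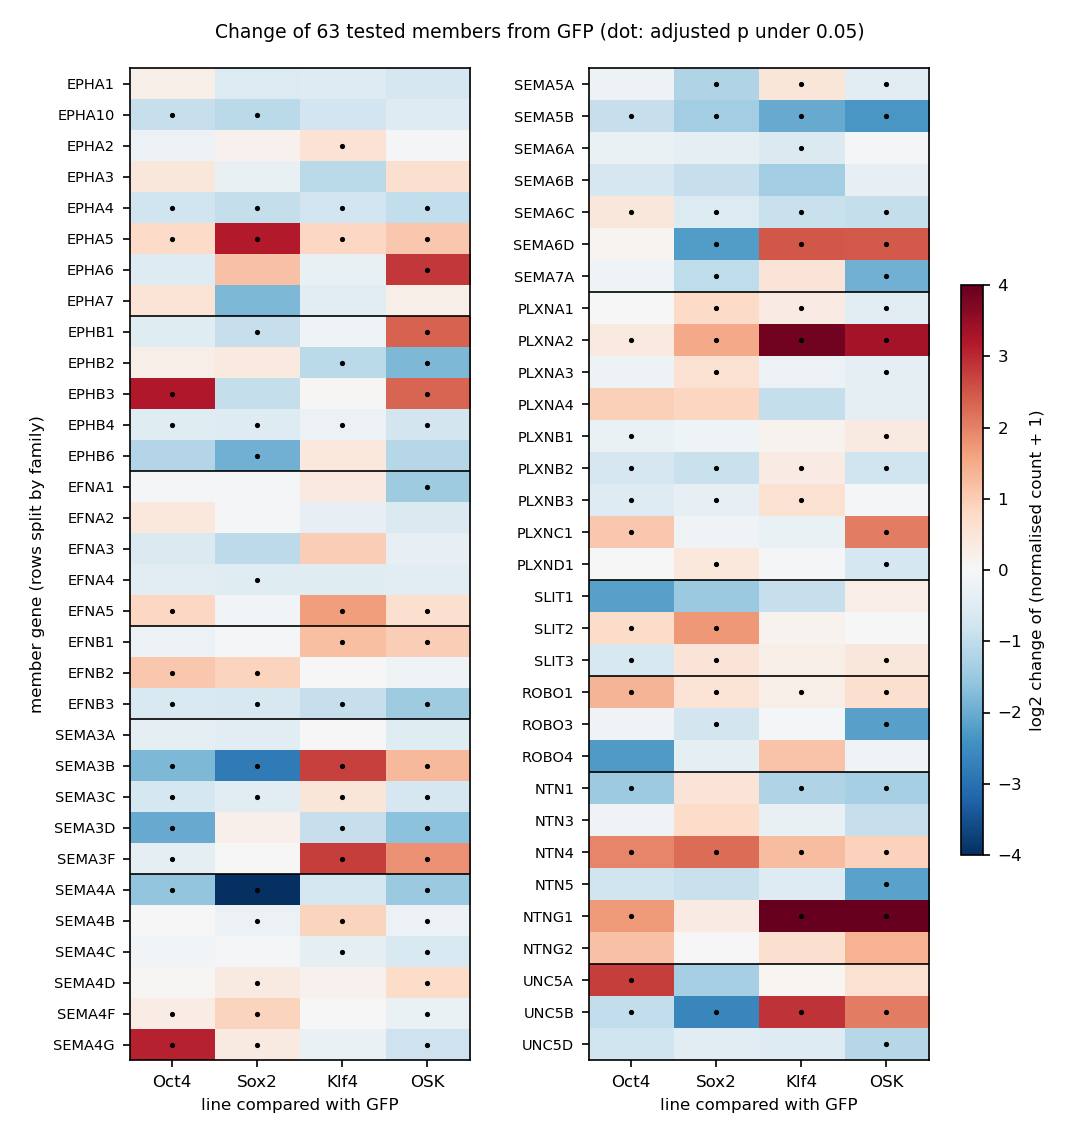
Each cell gives the log2 change from GFP of 1 tested member (rows, split by family) in 1 line (columns), red for higher and blue for lower on a scale cut at -4 and 4, with a dot where the adjusted p was under 0.05. SEMA3B, UNC5B and SEMA6D are red in Klf4 and OSK and blue in Sox2, while EPHA4 and EFNB3 are blue with a dot in all 4 lines.

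Per length, a few receptors and ligands dominated the family. The level per kilobase of exon, averaged over all libraries, was highest for PLXNB2 (3874 normalised counts per kilobase), a plexin that answers class 4 semaphorins, and for SEMA3B (3802), a secreted semaphorin. They were followed by EPHA2 (1408), an Eph receptor of many epithelia, UNC5B (1003), a netrin receptor, SLIT3 (867), PLXNB1 (865), PLXND1 (767) and NTN4 (658), a laminin-related netrin of basement membranes. When the longest transcript replaced the full exon length, SEMA3B ranked first and PLXNB2 the second. The order was not the same in each line: SEMA3B stood at 270 per kilobase in Sox2 and 12610 in Klf4, whereas PLXNB2 kept between 2559 and 5956.

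**Figure D3:**
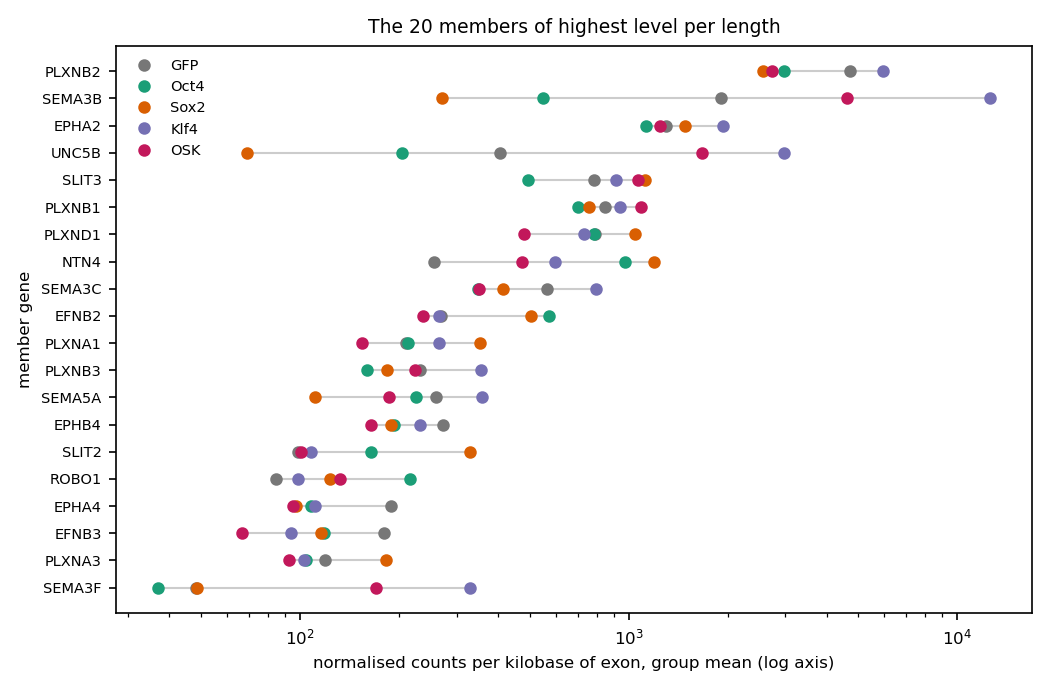
Group means per kilobase of exon on a log axis for the 20 members of highest level, 1 row per gene and 1 coloured dot per line. SEMA3B and UNC5B have the widest spread, with Sox2 lowest and Klf4 highest for both, while PLXNB2, EPHA2 and PLXNB1 keep within a narrow range.

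SEMA3B, a secreted ligand that works through neuropilins and is also known as a tumour suppressor at 3p21, had the widest range of normalised counts of any member. Its normalised counts were 9991, 11317 and 11629 in GFP, 3189 and 3155 in Oct4, 1598 and 1515 in Sox2, 72735 and 72714 in Klf4, and 28294 and 25118 in OSK. No 2 of the 5 groups overlapped: Klf4 was highest, then OSK, GFP, Oct4 and Sox2. The log2 change from GFP was 2.73 (SE 0.08, limma adjusted p = 1.2e-12) in Klf4 and 1.28 (SE 0.08, adjusted p = 2.68e-09) in OSK. It fell by 1.79 in Oct4 (SE 0.08, limma adjusted p = 6.76e-11) and by 2.82 in Sox2 (SE 0.08, adjusted p = 4.22e-13). On the log2 scale OSK minus Sox2 was 4.10, OSK minus Oct4 3.07 and OSK minus Klf4 -1.45, each past the threshold, and Sox2 minus Klf4 was -5.55 (SE 0.08, limma adjusted p = 8.46e-16). SEMA3B alone made up 10% to 10.4% of the members' summed counts in GFP, 34.8% in both Klf4 libraries and 1.62% to 1.7% in Sox2.

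**Figure D4:**
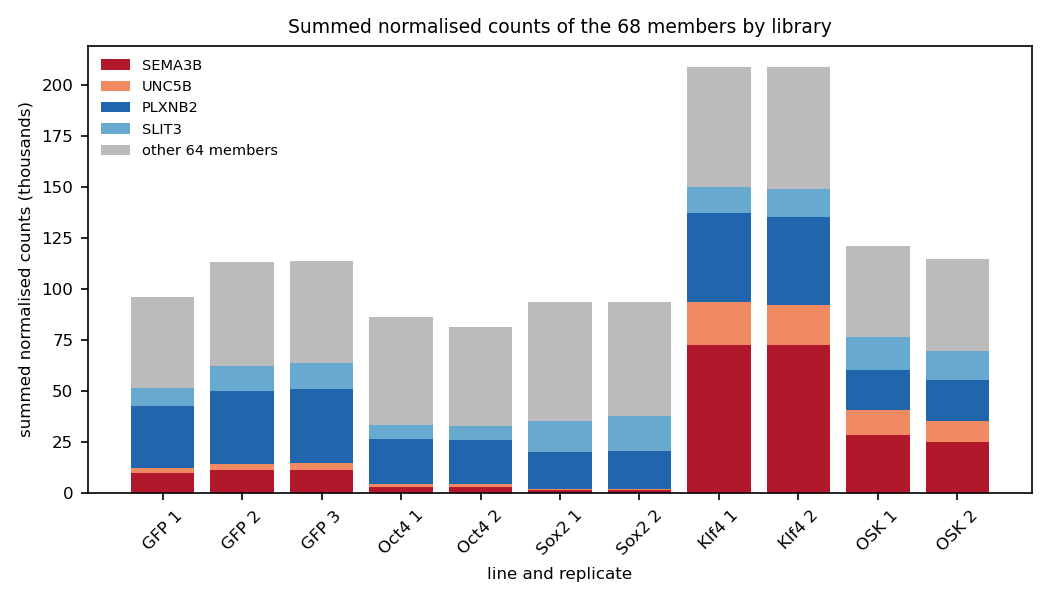
Stacked bars give the summed normalised counts of the 68 members in each of the 11 libraries with SEMA3B, UNC5B, PLXNB2 and SLIT3 coloured and the other 64 members in grey. The Klf4 bars are the tallest, and SEMA3B accounts for 61% of the difference between the Klf4 and GFP means, UNC5B for 17.3%.

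SEMA3F, another secreted semaphorin, lies 78.5 kilobases from SEMA3B on chromosome 3 (GENCODE 29 on GRCh38, SEMA3F at chr3:50155045-50189075 and SEMA3B at chr3:50267558-50277546, both on the plus strand). It stood at 241, 257 and 200.2 in GFP, 179 and 177 in Oct4, 242 and 228 in Sox2, 1624 and 1556 in Klf4, and 905 and 737 in OSK. Klf4 and OSK were above all other libraries, by 2.77 (SE 0.12, limma adjusted p = 7.49e-11) and 1.81 (SE 0.12, adjusted p = 4.93e-09) over GFP. Of 4 features tested between SEMA3F and SEMA3B, chosen for their place beside this pair, 3 were higher than GFP in Klf4 and none lower, where 17.6% of all genes were higher. These were GNAI2 and, close to the threshold, SEMA3B-AS1 (limma adjusted p = 0.0496) and ENSG00000230454 (adjusted p = 0.0449), while SLC38A3 did not pass. GNAI2, a G protein subunit gene between them, rose by 1.84 in Klf4 (SE 0.09, limma adjusted p = 2.24e-10) and 0.63 in OSK (SE 0.09, adjusted p = 1.9e-05). In OSK, 1 of the 4 was higher and 2 were lower, against 19.7% and 20% of all genes. In Sox2, 2 were higher, and in Oct4 1 was, with none lower, where 21.7% and 20.1% of all genes were higher. ENSG00000230454 rose by 1.36 in Sox2 and 0.67 in Oct4, and GNAI2 by 0.48 in Sox2. SEMA3B was lower than GFP in both of these lines.

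No other tested secreted semaphorin was higher than GFP in both Klf4 and OSK, although SEMA3C moved in the direction of SEMA3B in Oct4, Sox2 and Klf4. SEMA3D read 259, 318 and 351 in GFP, 56.9 and 101 in Oct4, 361 and 352 in Sox2, 213 and 123 in Klf4, and 84.5 and 113 in OSK. Oct4 and OSK lay below every GFP library and Sox2 above them by a small margin. It fell by 2.00 in Oct4 (SE 0.24, limma adjusted p = 6.8e-06) and by 1.64 in OSK (SE 0.24, adjusted p = 4.77e-05), and differed between Oct4 and Sox2 by -2.22 (SE 0.26, adjusted p = 6.79e-06). SEMA3C fell in Oct4, Sox2 and OSK (by 0.70, 0.46 and 0.68) and rose in Klf4 (0.49). SEMA3A, the classic repellent, was at 8.67 to 24.8 in all libraries and passed in no comparison with GFP. Of the 5 tested secreted semaphorins, 4 were lower in Oct4 (80% changed, against 37.3% of all genes), 2 lower in Sox2 (40% against 41.6%), 3 higher and 1 lower in Klf4 (80% against 33.5%), and 2 higher and 2 lower in OSK (80% against 39.7%).

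Neuropilins, the co-receptors of the secreted semaphorins, are not members, and both had larger log2 changes in Oct4 than any tested secreted semaphorin. NRP1 stood at 275, 241 and 251 in GFP, 3565 and 3280.24 in Oct4, 123 and 106 in Sox2, 119 and 165 in Klf4, and 2323 and 2229 in OSK. It was above GFP in Oct4 by 3.74 (SE 0.12, limma adjusted p = 3.03e-12) and in OSK by 3.15 (SE 0.12, adjusted p = 2.21e-11), and it fell by 1.15 in Sox2 and 0.86 in Klf4. NRP2 read 55.6, 90.04 and 78.7 in GFP, 1974 and 1699.64 in Oct4, 954 and 743 in Sox2, 43.9 and 68.6 in Klf4, and 74.8 and 109 in OSK. Its log2 change was 4.62 in Oct4 (SE 0.22, limma adjusted p = 2.09e-10) and 3.50 in Sox2 (SE 0.22), and OSK minus Oct4 was -4.33. NRP1 was thus raised in Oct4 and OSK, and NRP2 in Oct4 and Sox2.

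Of 13 membrane-bound semaphorins, which act between touching cells, 3 were higher and 7 lower in Sox2, where 21.7% and 19.9% of all genes were, and 2 higher and 9 lower in OSK, against 19.7% and 20%. Oct4 had 3 higher and 2 lower (38.5% changed, near the 37.3% of all genes) and Klf4 3 higher and 4 lower (53.8% against 33.5%). SEMA4G rose most of them in Oct4, and stood at 198, 184 and 181 in GFP, 1532 and 1639 in Oct4, 242 and 236 in Sox2, 141 and 175 in Klf4, and 94.3 and 119 in OSK. It rose by 3.07 in Oct4 (SE 0.13, limma adjusted p = 4.09e-11) and fell by 0.82 in OSK (SE 0.13), a difference of -3.89 between OSK and Oct4 (SE 0.14, adjusted p = 9.18e-12). SEMA4G shares 1170 exon bases with MRPL43 on the opposite strand, which rose by 0.53 in Oct4. The kit as labelled and the counting are not stated to keep strand, so reads over those bases cannot be told apart.

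SEMA4A, a ligand with roles in immune cells and in the retina, was lowest in Sox2. Its counts were 156, 137 and 122 in GFP, 38.3 and 53.8 in Oct4, 4.49 and 8.56 in Sox2, 103 and 69.7 in Klf4, and 54.2 and 44 in OSK. The Sox2 libraries lay below all others, and it fell by 4.25 from GFP (SE 0.29, limma adjusted p = 8.89e-09), against 1.57 in Oct4 and 1.47 in OSK. With a pseudocount of 5 in place of 1 the Sox2 change was -3.65. SEMA6D, a ligand of plexin A1, moved the opposite way in Sox2 and Klf4: 33.8, 35.4 and 13.6 in GFP, 30.2 and 25.2 in Oct4, 7.85 and 2.57 in Sox2, 168 and 131 in Klf4, and 143 and 145 in OSK. It rose by 2.50 in Klf4 and 2.46 in OSK (SE 0.42, limma adjusted p = 0.000221 and 0.000188) and fell by 2.23 in Sox2. Without Sox2 replicate 1 or 2 that fall was -2.89 or -1.58, and the difference between OSK and Sox2 (4.69) was 5.35 or 4.04, that between Sox2 and Klf4 (-4.73) -5.39 or -4.08.

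SEMA7A, which is anchored by a lipid and binds plexin C1 and integrins, was lowest in OSK. It read 146, 254 and 197 in GFP, 179 and 166 in Oct4, 89.8 and 103 in Sox2, 297 and 262 in Klf4, and 62.9 and 40.7 in OSK. OSK fell by 1.92 from GFP (SE 0.22, limma adjusted p = 2.89e-06), and its differences from Oct4, Sox2 and Klf4 were -1.75, -0.91 and -2.44, all past the threshold. SEMA5B fell in all 4 lines, from 82.6 to 117 in GFP to 18.4 and 18.7 in OSK (-2.32, SE 0.29, limma adjusted p = 1.06e-05). Its change was -2.01 in Klf4, -1.38 in Sox2 and -0.93 in Oct4. SEMA5A fell by 1.20 in Sox2 and rose by 0.48 in Klf4. SEMA4B rose by 0.89 in Klf4, SEMA4F by 0.89 in Sox2, and SEMA6C fell by 0.88 in Klf4.

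**Figure D5:**
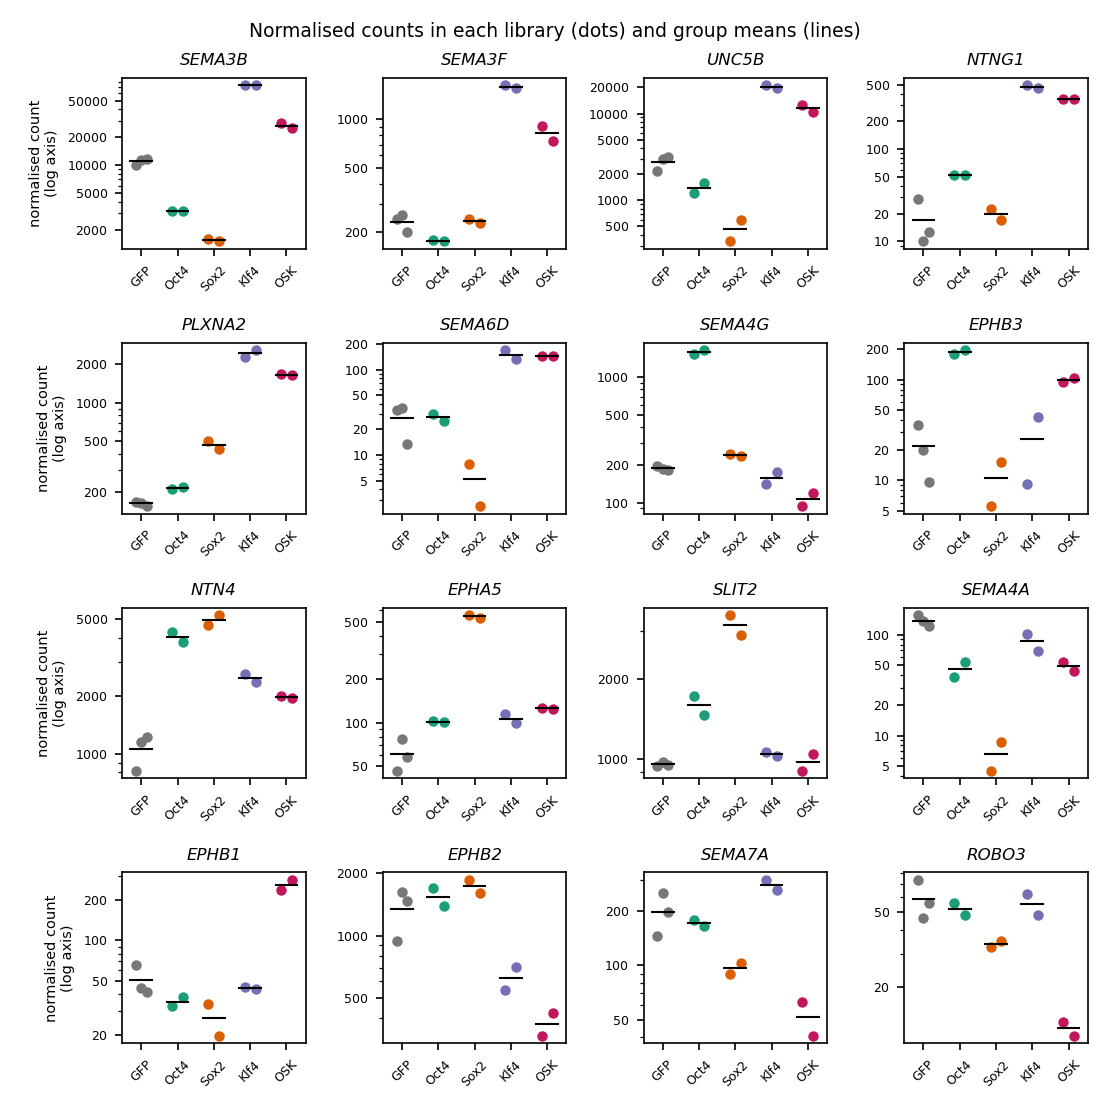
Each panel shows 1 member, with a dot per library and a line at the mean of each group, as normalised counts on a log axis whose range differs between panels. Klf4 and OSK stand highest for SEMA3B, SEMA3F, UNC5B, NTNG1, PLXNA2 and SEMA6D, Oct4 for SEMA4G and EPHB3, and Sox2 for EPHA5, SLIT2 and NTN4, while OSK is highest for EPHB1 and lowest for EPHB2, SEMA7A and ROBO3.

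Plexins, the semaphorin receptors, had 2 higher and 3 lower in Oct4 (55.6% changed, against 37.3% of all genes), 4 higher and 2 lower in Sox2 (66.7% against 41.6%), 4 higher and none lower in Klf4 (44.4% against 33.5%), and 3 higher and 4 lower in OSK (77.8% against 39.7%), of 9 tested. PLXNA2, a receptor for class 6 and, with neuropilins, class 3 semaphorins, read 170, 167 and 157 in GFP, 211 and 219.75 in Oct4, 502 and 439 in Sox2, 2292 and 2566 in Klf4, and 1673 and 1639.95 in OSK. All 4 lines were above GFP with no overlap, Klf4 highest. The log2 change was 3.87 in Klf4 (SE 0.09, limma adjusted p = 1.36e-13), 3.32 in OSK (SE 0.09, adjusted p = 3.43e-13), 1.51 in Sox2 and 0.39 in Oct4. OSK minus Klf4 was -0.55 (SE 0.10, limma adjusted p = 0.000607). PLXNA1 and PLXNA3 rose in Sox2 by 0.75 and 0.62, and both fell in OSK, by 0.44 and 0.36.

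PLXNB2 rose slightly in Klf4 and fell in the other lines, at 30694, 35947 and 36278 in GFP, 43642 and 42796 in Klf4, and 19615 and 19921 in OSK. Its Oct4 libraries were at 22120 and 21098 and its Sox2 libraries at 18360 and 18784. The changes were 0.34 in Klf4 and -0.66, -0.88 and -0.79 in Oct4, Sox2 and OSK, all past the threshold. PLXNC1, the receptor of SEMA7A, read 28.8, 44.5 and 18.5 in GFP and 127 and 119 in OSK, a rise of 2.06 (SE 0.36, limma adjusted p = 0.000242). Without GFP replicate 3 or Oct4 replicate 2 its rise of 1.07 in Oct4 (49.9 and 75.5) was 0.76 or 0.77 and no longer passed. PLXNC1 shares 177 exon bases with CEP83 on the opposite strand, which rose by 1.78 in Oct4 and did not pass in OSK (137 in the mean of GFP, 138 in that of OSK). PLXNA4 differed from Klf4 by 1.89 in Oct4 and 1.79 in Sox2.

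Of 5 tested ephrin-A genes, which are held to the membrane by a lipid anchor, 1 was higher in Oct4, 1 lower in Sox2 and 1 higher in Klf4 (20% each, against 37.3%, 41.6% and 33.5% of all genes), and 1 was higher and 1 lower in OSK (40% against 39.7%). EFNA5, a graded repellent in the visual map, was at 181, 149 and 208 in GFP, 323 and 314 in Oct4, 176 and 156 in Sox2, 632 and 511 in Klf4, and 276 in both OSK libraries. It rose by 1.67 in Klf4 (SE 0.14, limma adjusted p = 1.58e-07), 0.84 in Oct4 and 0.64 in OSK. EFNA1 read 54.6 to 84.6 in GFP and 26 and 23.1 in OSK, a fall of 1.41, and OSK minus Klf4 was -1.80 (SE 0.26, limma adjusted p = 8.96e-05).

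Each line raised 1 of the 3 ephrin-B genes, transmembrane ligands that signal back into their own cell, and lowered another (66.7% changed in each, against 33.5% to 41.6% of all genes). EFNB2, an arterial marker, was at 1266, 1388 and 1392 in GFP, 3092 and 2666 in Oct4, 2536 and 2509.65 in Sox2, 1278 and 1373 in Klf4, and 1196 and 1175 in OSK. Oct4 and Sox2 were raised, by 1.09 (SE 0.08, limma adjusted p = 1.45e-08) and 0.90 (SE 0.08, adjusted p = 8.98e-08), while OSK minus Oct4 was -1.28 and OSK minus Sox2 -1.09. EFNB1 rose instead in Klf4 (1.19) and OSK (0.99). EFNB3 fell in all 4 lines, by 0.60, 0.63, 0.93 and 1.43 in Oct4, Sox2, Klf4 and OSK, from 547 to 630.25 in GFP to 191 and 237 in OSK.

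Of 8 tested EPHA genes, 1 was higher and 2 lower in Oct4 and in Sox2, and 2 higher and 1 lower in Klf4 and in OSK. That is 37.5% changed in each line, close to the 33.5% to 41.6% of all genes, and it counts EPHA6, which passed the filter through its OSK libraries alone, among the OSK rises. EPHA5, a receptor best known from brain and retina, stood at 46.7, 76.9 and 58.3 in GFP, 102 in both Oct4 libraries, 552 and 532 in Sox2, 115 and 99.4 in Klf4, and 126 and 125 in OSK. All 4 lines lay above GFP, and Sox2 far above the other 3. The rise was 3.17 in Sox2 (SE 0.18, limma adjusted p = 1.23e-09), against 0.77, 0.83 and 1.07 in Oct4, Klf4 and OSK, and OSK minus Sox2 was -2.10 (SE 0.20, adjusted p = 4.28e-07). EPHA5-AS1, which shares 535 exon bases with EPHA5 on the other strand, rose by 2.36 in Sox2, at 16.8 and 45.4 against 2.02 to 8.94 in GFP. EPHA4, a broad receptor for both ephrin classes, fell by 0.78 to 0.99 in all 4 lines. EPHA2 rose by 0.57 in Klf4 and did not pass in the other 3 comparisons with GFP, and OSK minus Klf4 was -0.63 for it.

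Among the 5 EPHB receptors, 1 was higher and 1 lower in Oct4, 3 lower in Sox2, 2 lower in Klf4, and 2 higher and 2 lower in OSK (40%, 60%, 40% and 80% changed, against 37.3%, 41.6%, 33.5% and 39.7% of all genes). EPHB3, a gene of intestinal crypts, was at 35.8, 20.2 and 9.72 in GFP, 179 and 196 in Oct4, 5.61 and 15.4 in Sox2, 9.25 and 42.3 in Klf4, and 95.4 and 104 in OSK. Oct4 and OSK lay above the other 7 libraries, by 3.21 (SE 0.56, limma adjusted p = 0.000292) and 2.31 (SE 0.56, adjusted p = 0.00373) over GFP. Its replicates in Klf4 differed widely. OSK minus Klf4, 2.26, was 1.22 without Klf4 replicate 1, where it did not pass, and 3.30 without replicate 2. Nor did it pass without OSK replicate 1 (2.32) or OSK replicate 2 (2.19). Oct4 minus Klf4, 3.16, was 2.12 or 4.20 without 1 of the Klf4 libraries. The Oct4 minus Sox2 difference, 4.17, was 3.52 or 4.83 without 1 of the Sox2 libraries.

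EPHB1 and EPHB2 took opposite directions in OSK. EPHB1 read 65.5, 44.5 and 41.8 in GFP, 32.5 and 37.8 in Oct4, 33.7 and 19.7 in Sox2, 45.1 and 43.4 in Klf4, and 236 and 279 in OSK. OSK was above every other library, by 2.35 over GFP (SE 0.27, limma adjusted p = 3.71e-06) and by 2.84, 3.27 and 2.51 over Oct4, Sox2 and Klf4. EPHB2 read 939, 1619.64 and 1462 in GFP, 1693 and 1394 in Oct4, 1851 and 1611 in Sox2, 544 and 703 in Klf4, and 328 and 421 in OSK. It fell by 1.81 in OSK (SE 0.18, limma adjusted p = 9.55e-07) and 1.08 in Klf4, and OSK minus Klf4 was -0.73 (SE 0.20, adjusted p = 0.0156). EPHB4, a venous receptor and the partner of EFNB2, fell by 0.49, 0.53 and 0.73 in Oct4, Sox2 and OSK. Its difference in Klf4 (-0.23) passed with limma and not with edgeR or DESeq2.

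Of 3 tested Slit genes, 1 was higher and 1 lower in Oct4, 2 higher in Sox2, none changed in Klf4 and 1 was higher in OSK. SLIT1 counts as tested only through GFP replicate 1 (72.5) and OSK replicate 1 (16.3), the libraries that stood apart. It was at 0 to 6.6 elsewhere and passed in no comparison with GFP. Of 3 tested Robo genes, 1 was higher in each line, and 1 was lower in Sox2 and in OSK. With 3 genes in each family, 1 call is 33.3%, against 33.5% to 41.6% of all genes. SLIT2, a secreted repellent, was at 942, 980.28 and 954 in GFP, 1723 and 1465 in Oct4, 3444 and 2921 in Sox2, 1069.89 and 1032 in Klf4, and 907 and 1047 in OSK. Sox2 was highest and Oct4 next, with log2 changes of 1.73 (SE 0.09, limma adjusted p = 3.94e-10) and 0.73 (SE 0.09), and OSK minus Sox2 was -1.70. SLIT3 rose in Sox2 (0.53) and OSK (0.46) and fell in Oct4 (-0.65). ROBO1, a widely expressed Slit receptor, was at 870.01 to 974 in GFP and 2430.35 and 2273 in Oct4, a rise of 1.35 (SE 0.08, limma adjusted p = 2.84e-09), and it rose by 0.54 and 0.64 in Sox2 and OSK. Its small difference in Klf4 (0.22) passed with limma and not with edgeR or DESeq2. ROBO3 stood at 73.5, 46.5 and 55.4 in GFP and 13 and 11 in OSK. It fell by 2.17 in OSK (SE 0.28, limma adjusted p = 1.22e-05), and its differences from Oct4, Sox2 and Klf4 were -2.02, -1.42 and -2.10.

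Netrins, laminin-related secreted or membrane-anchored guidance cues, had 2 higher and 1 lower in Oct4 (50% changed, against 37.3% of all genes), 1 higher in Sox2 (16.7%, below the 41.6% of all genes), 2 higher and 1 lower in Klf4 (50% against 33.5%), and 2 higher and 2 lower in OSK (66.7% against 39.7%), of 6 tested. NTN4 rose in all 4 lines. It read 816, 1151 and 1217 in GFP, 4301 and 3810.16 in Oct4, 4689.81 and 5242 in Sox2, 2598 and 2369 in Klf4, and 1988 and 1949 in OSK. The changes were 2.24 in Sox2 (SE 0.13, limma adjusted p = 9.23e-10), 1.95 in Oct4, 1.25 in Klf4 and 0.91 in OSK, with -1.33 for OSK minus Sox2 and -1.04 for OSK minus Oct4. The rise was smallest in the line that carried all 3 factors, although OSK and Klf4 did not differ past the threshold (-0.33, SE 0.14). NTNG1, a lipid-anchored netrin that binds a synaptic adhesion protein, was at 28.8, 10.1 and 12.6 in GFP, 52.3 and 52.6 in Oct4, 22.4 and 17.1 in Sox2, 490.42 and 455 in Klf4, and 346 and 349.77 in OSK. The rise was 4.84 in Klf4 (SE 0.32, limma adjusted p = 1.06e-08), 4.40 in OSK (SE 0.32, adjusted p = 1.91e-08) and 1.69 in Oct4 (SE 0.32), and OSK and Klf4 did not differ past the threshold (-0.44, SE 0.35). NTN1, the founding netrin, was low, at 22.3 to 36.7 in GFP, 6.97 and 12.6 in Oct4, and 34.8 and 44.5 in Sox2. NTN5 fell by 2.15 in OSK (SE 0.53, limma adjusted p = 0.00398), from 18.2 to 45.7 in GFP to 6.5 and 4.4.

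UNC5B, a netrin receptor also known as a target of p53 and as a guide of blood vessels, was 1 of 3 tested UNC5 genes. Among them, 1 was higher and 1 lower in Oct4, 1 lower in Sox2, 1 higher in Klf4, and 1 higher and 1 lower in OSK (66.7%, 33.3%, 33.3% and 66.7% changed, against 37.3%, 41.6%, 33.5% and 39.7% of all genes). UNC5B counts were 2178, 2983 and 3189 in GFP, 1204 and 1597 in Oct4, 341 and 599 in Sox2, 21038 and 19519 in Klf4, and 12413 and 10449 in OSK. The order of the 5 groups was that of SEMA3B, again with no overlap. UNC5B rose by 2.88 in Klf4 (SE 0.19, limma adjusted p = 1.34e-08) and 2.05 in OSK (SE 0.19, adjusted p = 3.99e-07), and fell by 0.99 in Oct4 (SE 0.19, adjusted p = 0.000756) and 2.60 in Sox2 (SE 0.19, adjusted p = 2.25e-08). OSK minus Sox2 was 4.65 and OSK minus Klf4 -0.83. UNC5B-AS1, an antisense gene inside UNC5B that shares no exon base with it, stood at 23.8, 14.2 and 18.5 in GFP, 69.7 and 98.4 in Oct4, 38.1 and 32.5 in Sox2, 17337 and 11242 in Klf4, and 6338 and 4230.2 in OSK. Its log2 change was 9.49 in Klf4 (SE 0.23, limma adjusted p = 1.88e-13) and 8.06 in OSK (SE 0.23, adjusted p = 6.04e-13), and it was also higher in Oct4 (2.11), where UNC5B itself was lower. In Sox2 its log2 change of 0.90 passed with limma (adjusted p = 0.00443) and not with edgeR (adjusted p = 0.151) or DESeq2 (adjusted p = 0.0638). Reads of intronic UNC5B RNA and of UNC5B-AS1 cannot be told apart without strand. UNC5D, at 10.8 to 46.7, fell by 1.14 in OSK.

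Some calls on members with few reads or uneven replicates rested on single libraries. UNC5A, at 24.4 and 22.9 in Oct4 against 14.9, 2.02 and 0 in GFP, rose by 2.76 (SE 1.01, limma adjusted p = 0.043). The value was 3.82 without GFP replicate 1, where the call was kept, and 1.83 without GFP replicate 3, where it was lost. The UNC5A call was also lost without GFP replicate 2, either Oct4 library, either Klf4 library, Sox2 replicate 1 or OSK replicate 2, and with edgeR, DESeq2 and a fit to just the compared groups. Its difference between Oct4 and Sox2 (4.08) was lost without either Oct4 library or Sox2 replicate 2. EPHA6 stood at 22.8 and 13.2 in OSK against 0 to 6.85 elsewhere. Since it passed the filter through those OSK libraries alone, its levels are a description. Its calls are part of the counts of members given above, and nothing further is drawn from them. EPHB6 fell by 1.92 in Sox2, which was -1.27 without GFP replicate 1 and -1.10 without Sox2 replicate 2, both not past the threshold, and -2.74 without Sox2 replicate 1, and the fit to just the compared groups ended it too.

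ROBO4, an endothelial Robo, differed between Oct4 (1.16 and 0) and Klf4 (18.5 and 11.4) by -3.41, and the call was lost without Oct4 replicate 2 (-2.85) or either Klf4 library (-3.08 and -3.73). NTN1 fell by 1.45 in Oct4 (-1.07 and not past the threshold without Oct4 replicate 1) and 1.32 in OSK. Its fall of 1.19 in Klf4 was lost without GFP replicate 1 or 3 or either Klf4 library, at -0.99 to -1.34, and with DESeq2 (-1.29) and the fit to just the compared groups. Its fall in OSK was lost without either OSK library. The difference of NTN1 between Sox2 and Klf4, 1.70, was lost without Sox2 replicate 2 (1.52). EPHA10 fell by 0.91 in Oct4, lost without GFP replicate 1 or 3 or either Oct4 library (-0.74 to -1.08), and by 1.07 in Sox2, lost without Sox2 replicate 2 (-0.72). SEMA3D fell by 0.92 in Klf4, lost without Klf4 replicate 2 (-0.53), and the SEMA5B fall in Oct4 was lost without GFP replicate 1 or either Oct4 library (-0.80 to -1.03). SEMA6A fell by 0.58 in Klf4, lost without GFP replicate 1 (-0.40), Klf4 replicate 1 (-0.35), Oct4 replicate 1, Sox2 replicate 1 or either OSK library, and with DESeq2 (-0.59) and the fit to just the compared groups. PLXNC1 exceeded Klf4 in Oct4 by 1.35, lost without Oct4 replicate 2 (1.05) or Klf4 replicate 2 (1.30).

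Some smaller changes given above also lost their call when 1 library was left out or another model was used. These were the SEMA3C fall in Sox2 without Sox2 replicate 2 (-0.27), the SEMA5A rise in Klf4 without Klf4 replicate 1 (0.35), the SLIT3 rise in OSK without OSK replicate 1 (0.21) and the EPHA5-AS1 rise in Sox2 without Sox2 replicate 2 (1.67, and 3.05 without replicate 1). The UNC5D fall in OSK was lost without GFP replicate 1 (-0.84) or OSK replicate 1, and with DESeq2. Between lines, OSK and Klf4 no longer differed past the threshold in EPHB2 without Klf4 replicate 2 or OSK replicate 1 or with DESeq2, and in UNC5B without Klf4 replicate 1 or OSK replicate 2. OSK and Sox2 no longer did so in SEMA7A without OSK replicate 2 (-0.60). The PLXNB2 rise in Klf4 was lost in the fit to just the compared groups. ROBO4 and UNC5A reached 10 normalised counts in 1 line each (Klf4 and Oct4) and, outside it, in GFP replicate 1 alone.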

How the data were processed

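PolyA RNA of 11 ARPE-19 libraries was analysed, grouped by sample title. The deposited table holds normalised counts, treated here as a signal. The authors scaled gene counts by 1 factor in each library and kept 2 decimals, as read from the values: 100% of those in each library are whole multiples of 1 read within a tolerance of 0.0061. STAR 2.7.1a and featureCounts 1.6.2 are named in the submitters' processing notes, with human and mouse builds whose roles are not given there; strand use in counting is not given in the sources used here. Per the labels' protocols, oligo(dT) beads enriched mRNA and the NEBNext Ultra II RNA kit made the libraries.

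limma 3.58.1 (R 4.3.3; lmFit, eBayes with trend) was fitted to log2(value + 1) for the 18828 genes that reached 10 in 2 or more libraries, all 11 libraries in 1 fit with a mean per group (6 residual and 9.21 prior degrees of freedom). Fold changes are on that scale, where the added 1 shrinks ratios of low counts. They are differences between means of logs, so with uneven libraries they can exceed the change of the group means. For UNC5A in Oct4 the value was 2.76 on this scale, 2.05 with edgeR and 2.07 with DESeq2. Benjamini-Hochberg adjustment covered all genes tested, with a threshold of 0.05. The main fit has no replicate block. Over 20 same-numbered pairs of libraries, deviations from group means correlated at -0.07 to 0.435. Between groups of 2 libraries both replicate numbers give the same value, so these are not 20 separate values. The highest, 0.435 and 0.31, were between GFP and OSK, whose first replicates stood apart in features detected. The numbers were not taken to pair libraries. Whole reads were recovered for 2 count models as alternatives, edgeR 4.0.16 and DESeq2 1.42.0, and the procedure was tested on simulated data.

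The members and lists were chosen with earlier results of these data known. Named members were at most 8 rises and 8 falls against GFP and 4 of each in other comparisons. These were past the threshold and had libraries that did not overlap. The 8 highest per length and some of the rows that overlap members were named as well. Further members share exon bases with rows not named above, such as EFNB2 with ENSG00000284966 (1313 bases) and PLXNB3 with SRPK3 (1432 bases). Other members were named after their values were seen. Gene lengths and positions are from GENCODE 29, promoter windows from RefSeq.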

Additional observations from a re-analysis of the deposited data

How the results depend on the processing

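The number of members changed stayed within 1.5 times of the reported count in all 10 comparisons and in the test over the 5 groups, under each alternative run: edgeR, DESeq2, TMM scaling, no filter, a pseudocount of 5, a filter at a mean CPM of 1, the replicate block, a fit to just the compared groups, each library left out in turn and, chosen after seeing the data, GFP replicate 1 and OSK replicate 1 both left out. Leaving out a library gave, against GFP, 24 to 31 members in Oct4, between 25 and 33 in Sox2, 24 to 29 in Klf4 and between 36 and 42 in OSK, and 22 to 34 for OSK against Klf4. With the replicate block, the counts against GFP were 29, 30, 30 and 40 for Oct4, Sox2, Klf4 and OSK. The block ended 4 calls (UNC5A, now 1.83, and PLXNC1, now 0.76, in Oct4; NTN1, now -1.25, in Klf4; EPHA6, now 2.61, in OSK); the numbers are shared labels only. Of 112 named log2 changes, 94 kept direction and call in every alternative and none reversed; no filter ended the calls of EPHA10, UNC5A and PLXNC1 in Oct4, EPHB6 in Sox2, EPHA6 against GFP and Klf4, ROBO4, and the SEMA6A and NTN1 falls in Klf4. The fit to just the compared groups ended 5 (UNC5A and PLXNC1 in Oct4, EPHB6 in Sox2, NTN1 and SEMA6A in Klf4), DESeq2 3 (UNC5A in Oct4, NTN1 and SEMA6A in Klf4) and edgeR 1 (UNC5A in Oct4). EPHA6 passed the filter through OSK alone, so its calls support nothing. Members under about 10 normalised counts are limited by depth.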

Other observations

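Genes that carry the guidance signal further were taken from a list of 60 co-receptors, further ligands and intracellular carriers, of which 55 were tested. Oct4 changed 32 of them (21 higher, 11 lower; 58.2%, against 37.3% of all genes tested), Sox2 35 (21 higher, 14 lower; 63.6%, against 41.6%), Klf4 27 (13 higher, 14 lower; 49.1%, against 33.5%) and OSK 32 (17 higher, 15 lower; 58.2%, against 39.7%). Beside the neuropilins, ABLIM3, an actin-binding LIM protein, rose by 4.75 in Oct4 (SE 0.23, limma adjusted p = 2.77e-10), from 46.7, 38.4 and 28.2 in GFP to 985 and 1064. NGEF, an exchange factor that acts downstream of Eph receptors, was at 19.9, 3.03 and 3.89 in GFP, 391 and 364 in Klf4 and 229 and 192 in OSK, rises of 5.67 (SE 0.51, limma adjusted p = 4.18e-07) and 4.83 (SE 0.51) that were 6.41 and 5.57 without GFP replicate 1. NRCAM, a neuronal adhesion molecule, was at 24.8, 2.02 and 0 in GFP, 70.7 and 118 in Sox2, and 49.9 and 52.8 in OSK, rises of 4.43 and 3.61 (SE 0.90) that were 5.73 and 4.91 without GFP replicate 1, and the one in OSK was not past the threshold with DESeq2. L1CAM, its relative, stood at 4.05 to 19.9 in GFP and 115 and 67.4 in Klf4, a rise of 3.14 (SE 0.57), and at 15.2 and 6.6 in OSK, where OSK minus Klf4 was -3.00.

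FLRT3, a membrane protein that binds UNC5 receptors and Robo1, was lower in all 4 lines. It read 589, 701 and 791 in GFP, 217 and 213 in Oct4, 194 and 265 in Sox2, 304 and 255 in Klf4, and 97.6 and 102 in OSK. No library of the other lines reached the GFP range, and OSK was lowest, with a fall of 2.77 (SE 0.15, limma adjusted p = 6.87e-10) against falls of 1.30 to 1.68 in the other 3 lines. Of the netrin receptors outside the UNC5 family, DCC was at 0 to 15.9 in every library and passed in no comparison with GFP, while neogenin (NEO1) was at 2526 to 2897 in GFP and fell by 0.47 in Oct4, 0.66 in Sox2 and 0.53 in OSK. RGMB, a ligand of neogenin, rose by 1.76 in Sox2 (SE 0.11, limma adjusted p = 2.38e-09). DRAXIN, a secreted netrin and DCC binding protein, was at 40.7, 8.09 and 2.92 in GFP and 65 and 66 in OSK, a rise of 2.54 (SE 0.74, limma adjusted p = 0.0116) that was 3.48 without GFP replicate 1 and was lost without either OSK library. ENAH, an actin regulator downstream of netrin and Robo signals, fell by 1.21 in Klf4 and 1.63 in OSK and rose by 0.58 in Sox2.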
